A study of Homo sapiens with 6 samples.

Results

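The complement genes CFB, CFD, C3, C1R, C1S, CFI, CD46, CD55 and CD59 were followed in RNA of RL95-2, a long-established line of human endometrial carcinoma cells. These 9 symbols were matched exactly in the first column of the count tables, which hold 23228 genes. RNA was sequenced from 3 control and 3 ADP-CM libraries of cells kept for 24 h. The control medium was serum-free RPMI and DMEM in equal parts. In ADP-CM, medium conditioned by mature human adipocytes took the place of the DMEM. By the study's methods, the adipocytes came from visceral fat of women with a high body mass index. All libraries come from 1 cell line, and the sources used here do not say how many fat donors the conditioned medium came from or whether replicates were separate cultures, so the p-values measure the spread between these libraries, which may be technical. The libraries held 16262614 to 17096135 gene reads under control medium and 18103609 to 18363033 under ADP-CM. Levels are given as CPM, read counts relative to the library total after TMM, an edgeR scaling that corrects for library composition. Means are given ± SD with n = 3 libraries per group.

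The 9 genes were chosen by their place in the complement system, with the read counts and fold changes of this same contrast already known. Their differences are therefore a description and support nothing on their own. In the words used below, a gene rose or fell when its Benjamini-Hochberg adjusted p-value was below 0.01 by the quasi-likelihood test of edgeR, run over all 12663 genes that passed the filter on low counts. Of the 9 genes, 7 passed the filter, 3 rose (CFB, C3 and CD59), 1 fell (CD55) and 3 did not pass the test (CFD, C1R and CD46). C1S and CFI had too few reads to be tested. Over all tested genes 13.5% rose and 13% fell by the same limit, 26.5% in all. A fold change of 1.5 in addition was passed by CFB and C3, both upward, and by 2.27% of all tested genes in either direction (1.14% upward). Since the choice of the 9 genes used this contrast, nothing is read from these shares. The median log2 fold change was 0.12 over the 7 tested members and -0.0023 over all tested genes.

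Complement is a cascade of plasma proteins that marks and punctures foreign or damaged cells. The classical arm starts with the C1 complex, whose proteases are C1r and C1s, and the alternative arm amplifies itself through factor B and factor D. Both arms cleave C3, the central component, and cells of the body are shielded by membrane proteins such as CD46, CD55 and CD59 and by plasma regulators such as factor I. The liver makes most of the plasma proteins, but epithelial cells, endometrium included, also make several of them, and factor D is known as adipsin because fat cells secrete it.

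**Figure D1:**
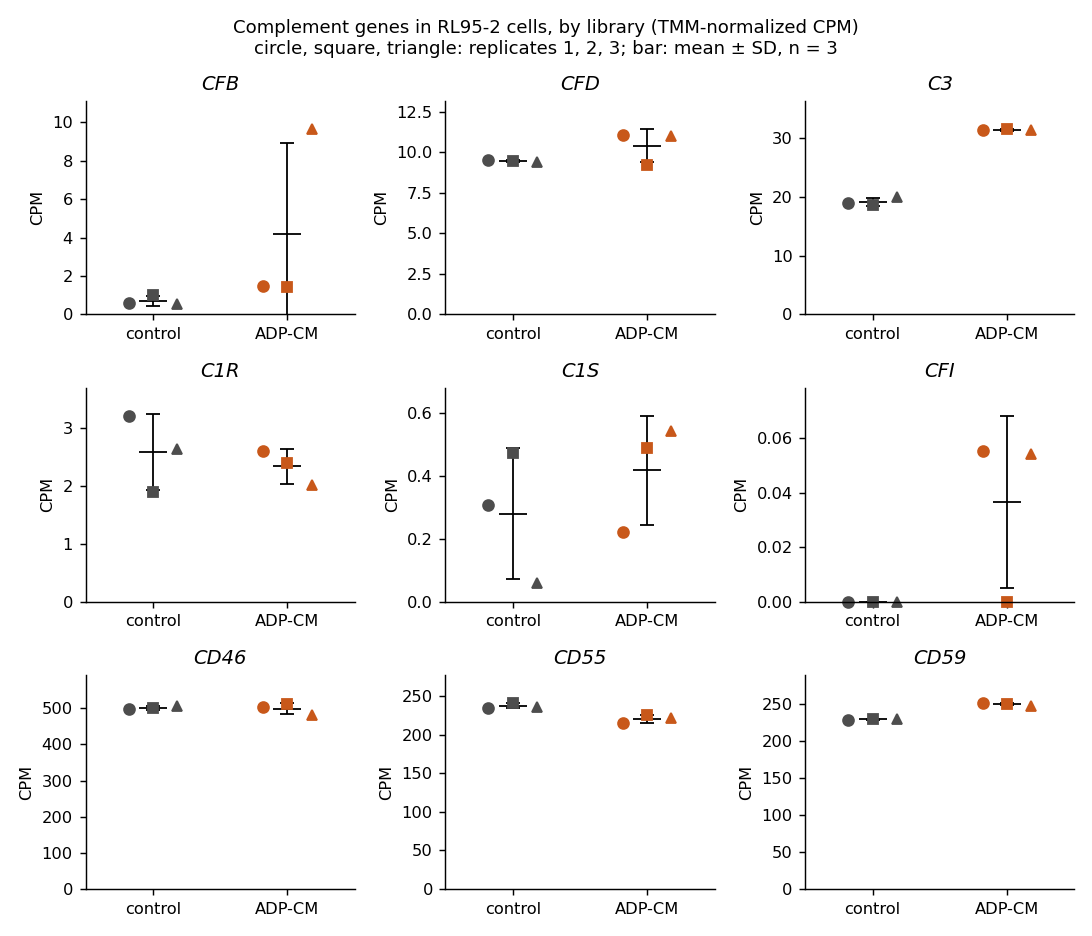
TMM-normalized CPM of the 9 complement genes in each library, with control on the left and ADP-CM on the right of every panel. Symbols are replicates, horizontal bars are means and error bars are SD with n = 3. The ADP-CM points of C3 and CD59 lie above the control points, those of CD55 lie below, and 1 of the CFB points, ADP-CM replicate 3 at 9.68 CPM, stands far from the other 5. The SD of CFB under ADP-CM exceeds its mean, so its lower error bar ends at the axis.

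The membrane regulators were by far the most abundant of these transcripts. Per kilobase of the canonical transcript, the control level was 150.8 ± 1.35 CPM for CD46, 91.7 ± 1.21 for CD55 and 30.3 ± 0.11 for CD59. CFD followed with 7.94 ± 0.0341 CPM per kilobase and C3 with 3.67 ± 0.136, while CFB had 0.289 ± 0.103 and C1S 0.104 ± 0.0779. CFI had no read in any control library. In ADP-CM the order was the same, with C3 at 6.01 ± 0.0282 and CFD at 8.74 ± 0.873 CPM per kilobase. C1R has no canonical transcript in the annotation of GRCh37 used here and was left out of this ranking. Neighbours in the order were further apart than their SD in control, but in ADP-CM the SD of CFB, 1.92 around 1.69 CPM per kilobase, reached down to the level of C1S.

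C3 encodes the protein on which the complement arms converge. Its control libraries held 307, 315 and 342 reads, against 568, 580 and 577 under ADP-CM. Every ADP-CM library lay above every control library. The groups failed to overlap in this way, up or down, for 45.5% of all tested genes and for CFB, C3, CD55 and CD59 among the members. The mean of C3 rose from 19.2 ± 0.712 to 31.5 ± 0.148 CPM, and the log2 fold change was 0.71 (standard error 0.061, adjusted p-value 1.85e-15 in edgeR). With each library left out in turn it ran from 0.69 to 0.74. C3 lies on chromosome 19 (6677715 to 6730573, GRCh37, minus strand) and shares 11.7% of its annotated exonic bases with another transcript model on its strand.

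CFB encodes factor B, which forms the alternative pathway convertase with C3b. Its control libraries held 10, 17 and 9 reads, and its ADP-CM libraries held 27, 26 and 178. Replicate 3 of ADP-CM was therefore at 9.68 CPM, where replicates 1 and 2 were at 1.49 and 1.42 and control lay between 0.526 and 1.01. The 95% Poisson interval of the 178 reads, 152.8 to 206.2, lay clear of those of the other ADP-CM libraries, 17.8 to 39.3 and 17.0 to 38.1. These intervals cover counting error only. Relative to the control mean, CFB was 2.03-fold higher in ADP-CM replicates 1 and 2 and 13.5-fold higher in replicate 3.

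The log2 fold change of CFB in edgeR was 2.54 (standard error 0.41) over all libraries and 1.01 without ADP-CM replicate 3. The adjusted p-value of the quasi-likelihood test moved from 8.11e-07 to 0.0108 between these fits. With the log2 fold change at 2.55 and 2.54, it was 0.0366 in DESeq2 and 0.228 in edgeR's robust fit, so that CFB missed the limit of 0.01 in each of these 3 settings, where C3 passed it. Other settings kept the call of CFB, with log2 fold changes from 2.28 to 2.95.

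**Figure D2:**
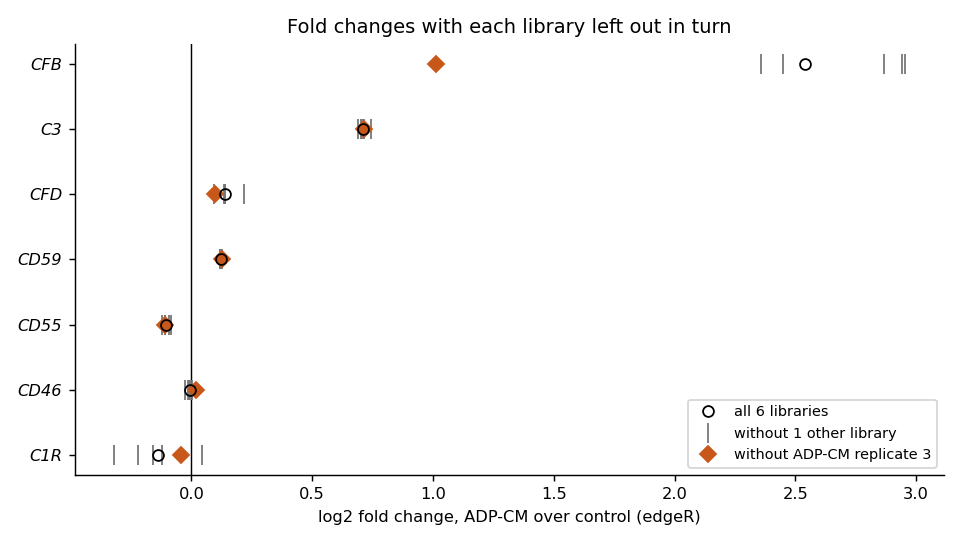
Log2 fold change of the 7 tested genes with all 6 libraries (open circles), with each library left out in turn (bars) and without ADP-CM replicate 3 (diamonds). Leaving out that library moved CFB from 2.54 to 1.01, and C3, CD59 and CD55 changed by less than 0.1 in each case.

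Few genes stood as high in that library. Among 12646 tested genes with a mean of at least 0.5 CPM, 30 were at least 2-fold higher in ADP-CM replicate 3 than in the mean of replicates 1 and 2, and the same count for the other 5 libraries against their own group ran from 13 to 28. CFB had the second highest ratio, 6.65, after TFF1, a secreted trefoil peptide, with 11.5. The other tested members had ratios between 0.805 (C1R) and 1.08 (CFD). TFF1 had 9, 86 and 225 reads in control and 52, 34 and 502 in ADP-CM. The next genes were SPTSSB, IGFBP4 and S100A14, with ratios of 4.11, 3.98 and 3.48. All 4 of these genes also had their most control reads in control replicate 3, whereas CFB had its fewest there, 9 reads.

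**Figure D3:**
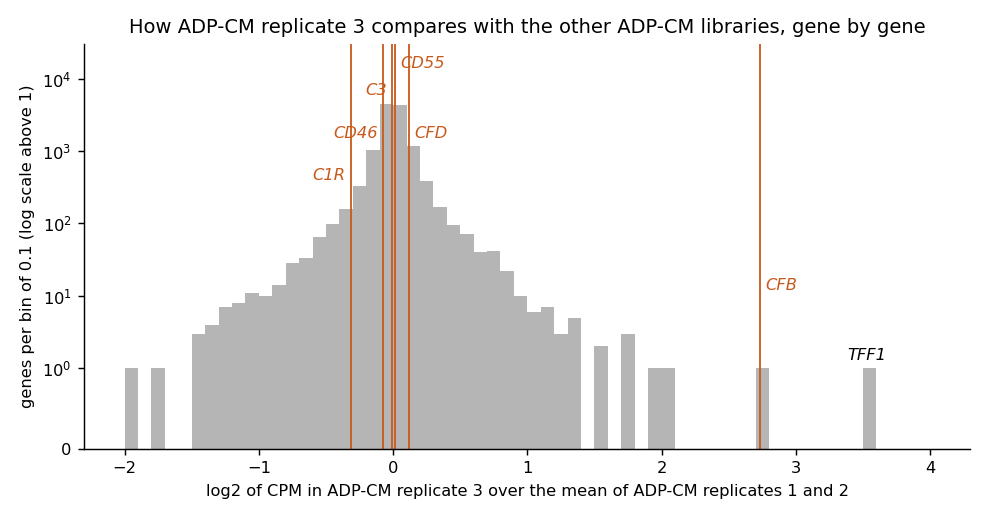
Histogram, over 12646 genes, of the log2 ratio of CPM in ADP-CM replicate 3 to the mean of ADP-CM replicates 1 and 2, in bins of 0.1 with a log count axis. Lines mark 6 of the complement genes. CFB stands at a ratio of 6.65, with TFF1 beyond it, while C3, CD46, CD55 and CFD lie between 0.950 and 1.08 and C1R, at 0.805, has 96.7% of the genes at or above it.

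CFB lies on chromosome 6 (31913427 to 31919863, GRCh37, plus strand) in the class III region of the major histocompatibility complex. Its main start is 422 bases after the end of C2, which encodes the classical pathway counterpart of factor B. Of the annotated exonic bases of CFB, 42.8% are shared on the same strand with C2 and a readthrough gene. C2 ends at 31913450 and so reaches only the first annotated bases of CFB. Nearly all of the shared bases are those of the readthrough gene. C2 itself had 5, 2 and 2 reads in control and 3 in every ADP-CM library. With the reads of CFB and C2 summed the log2 fold change was 2.28. The other tested protein-coding neighbours within 50 kb, looked up after the values of CFB were seen, were EHMT2, ZBTB12, NELFE (RDBP in the tables), SKIC2 (SKIV2L), DXO (DOM3Z) and STK19. Their ratios of replicate 3 to the other ADP-CM libraries ran from 0.804 (STK19) to 1.21 (DXO), and their log2 fold changes from -0.14 (NELFE) to 0.16 (DXO). In edgeR's quasi-likelihood test NELFE fell (adjusted p-value 0.000655) and SKIC2 rose (0.00365), and the others did not pass. C4A and C4B had no read, and as near-identical copies they cannot be counted from reads that align to both.

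The promoter of CFB is shown because CFB had the largest fold change of the members and the study asked about cytokine signalling through STAT3, whose sites have the form TTCNNNGAA. RefSeq windows of 300 bases (250 before to 50 after the start, GRCh38.p14) were given for 7 of the 9 members, without C3 and C1S. They were searched on both strands for that motif, for the interferon response form (GAAA, any 2 bases, GAAA), for the NF-kB consensus and for TATAAA. The following are 130 bases of the CFB window outside any annotated exon (chr6:31945845-31945974, plus strand). They lie within an intron of 1 longer annotated CFB transcript. An annotated exon begins just after them, so the other CFB matches lie past the first base of that exon. The match to the interferon form, which reads on the minus strand, is in capitals. Then follow 30 bases around each of the other matches, with the match in capitals.
CFB from -250 to -121: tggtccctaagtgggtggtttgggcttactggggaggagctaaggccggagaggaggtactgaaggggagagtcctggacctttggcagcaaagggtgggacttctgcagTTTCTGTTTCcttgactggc
CFB NF-kB consensus at -112 to -103: gcagctcagcGGGGCCCTCCcgcttggatg
CFB TTCNNNGAA at -92 to -84: cgcttggatgTTCCGGGAAagtgatgtggg
CFB TATAAA at -30 to -25: acacagattgTATAAAaggctgggggctgg
C1R TTCNNNGAA at -86 to -78 of its second window: gccagtcctaTTCCTGGAAggggaggggag
CD59 TTCNNNGAA at -128 to -120 of its first window: ccacccggccTTCTCAGAAcctgggccagg
The CFB window held all 4 motifs, at positions counted from the start, and none of the matches overlapped another. C1R held TTCNNNGAA in its second window only, and CD59 held it in its first and second windows, which overlap at that site. The windows of CFD, CFI, CD46 and CD55 held none of the 4. Of 35116 RefSeq windows of the same length, 7.66% held TTCNNNGAA, 3.57% the interferon form, 11.3% the NF-kB consensus and 11.5% TATAAA. The share of windows with all 4 was not counted. A match of letters is a description and says nothing on whether a factor binds there. The members with TTCNNNGAA had log2 fold changes of 2.54 (CFB, 1.01 without ADP-CM replicate 3), 0.12 (CD59) and -0.14 (C1R). Those with a window but without the motif had 0.14 (CFD), -0.0052 (CD46) and -0.10 (CD55), and CFI was not tested. A link between motif and fold change was not tested.

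CFD encodes factor D, the protease that cleaves factor B. It had 154, 160 and 161 reads in control and 200, 169 and 202 in ADP-CM, and ADP-CM replicate 2 lay below every control library, at 9.22 CPM against 9.41 to 9.49. The log2 fold change of CFD was 0.14, with a 95% interval of -0.06 to 0.33, and it did not pass the test (edgeR quasi-likelihood, adjusted p-value 0.274). CFD lies on chromosome 19 (859453 to 867884, GRCh37, plus strand). It is also a gene of fat cells. Of 10 adipocyte markers, ADIPOQ, LEP and CIDEA had no read in any library, and all 10 summed to 5.79 to 7.19 CPM in control and 4.47 to 5.27 in ADP-CM. Most of that was LIPE, a lipase and the only tested marker of the list, which fell from 5.77 ± 0.599 to 3.76 ± 0.272 CPM (log2 fold change -0.62, adjusted p-value 0.000344 in edgeR). The other 9 markers summed to 0.616 to 1.24 CPM in control and 0.994 to 1.25 in ADP-CM.

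The proteases of the C1 complex were low. C1R had 52, 32 and 45 reads in control and 47, 44 and 37 in ADP-CM, and the groups overlapped. Its log2 fold change was -0.14 with a 95% interval of -0.54 to 0.26, and without control replicate 1 it was 0.04. C1S, which lies next to C1R on chromosome 12, had 5, 8 and 1 reads in control and 4, 9 and 10 in ADP-CM. The Poisson intervals of its libraries overlap, and at this depth a difference in C1S was not detectable. C1R shares 14.3% of its annotated exonic bases with the neighbouring C1RL, so its count is uncertain. CFI, which encodes factor I, the plasma protease that inactivates C3b, had no read in control and 1, 0 and 1 in ADP-CM. All of these lie within the 95% Poisson interval of a count of 0, which reaches 3.69 reads per library.

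Of the 3 membrane regulators, CD59 rose, CD55 fell and CD46 did not pass the test. CD46, a cofactor for the cleavage of C3b by factor I, had 8063 to 8648 reads in control and 8865 to 9380 in ADP-CM. The means were 500.8 ± 4.48 and 499.0 ± 15.3 CPM, the groups overlapped in CPM, and the 95% interval of the log2 fold change was -0.05 to 0.04. CD55, which speeds the decay of C3 convertases, had 235.3, 241.1 and 236.0 CPM in control and 215.2, 225.5 and 222.3 in ADP-CM. The groups did not overlap, the level fell by 6.95% and the log2 fold change was -0.10 (standard error 0.025). For CD55 edgeR's quasi-likelihood test gave an adjusted p-value of 0.000727, which became 0.0122 without control replicate 2 and 0.0230 without ADP-CM replicate 1. CD59, which blocks assembly of the membrane attack complex, had 228.4, 228.9 and 230.0 CPM in control and 250.6, 249.7 and 247.5 in ADP-CM. It rose by 8.81%, a log2 fold change of 0.12 that ran from 0.12 to 0.13 when libraries were left out (adjusted p-value 4.54e-05 in edgeR with all libraries), and the groups did not overlap. The 3 genes together came to 967.3 ± 5.86 CPM under control medium and to 969.3 ± 17.5 under ADP-CM, with overlapping groups. The share of reads on no gene also differed between the groups, 10.2% to 10.3% against 11.5% to 11.6%, and its part in differences as small as those of CD55 and CD59 was not tested. CD59 and CD46 share 5.96% and 5.14% of their exonic bases with other annotated genes, the former on the same strand and the latter on the opposite one, and CD55 shares none. Of the other members, CFD shares 14.0% with MED16 on the opposite strand, and CFI and C1S share 29.4% and 2.76% with transcript models on their own strand. CD46 (207925382 to 207968858) and CD55 (207494864 to 207560149) lie on the plus strand of chromosome 1 and CD59 on the minus strand of chromosome 11 (33724556 to 33758025), all in GRCh37.

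**Figure D4:**
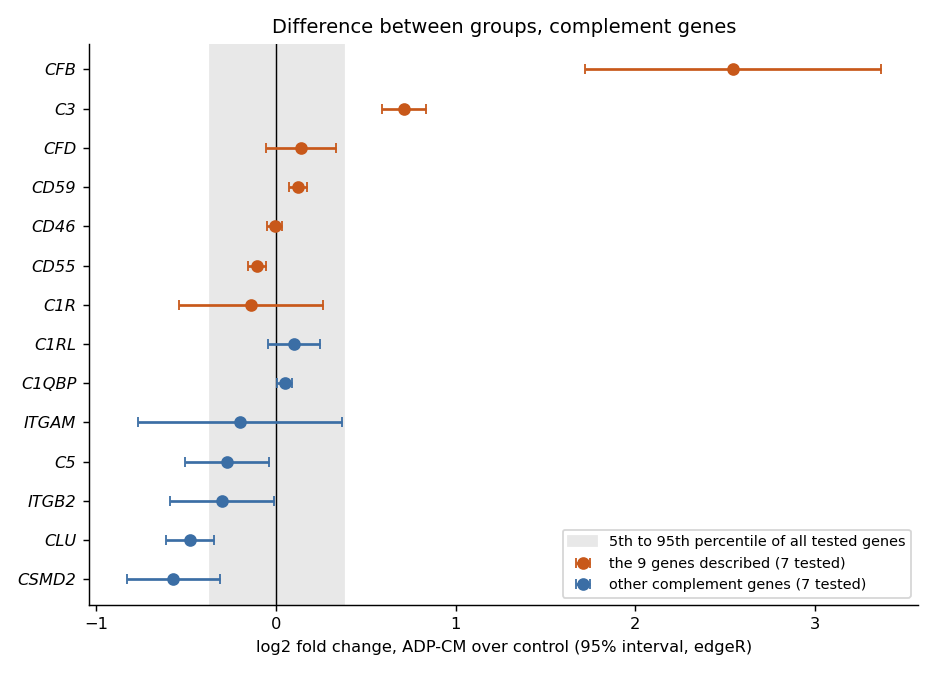
Log2 fold change, ADP-CM over control, with its 95% interval for the 7 tested members and the 7 tested genes among the other complement genes. The grey band holds the fold changes from the 5th to the 95th percentile of all tested genes, -0.36 to 0.38. CFB and C3 lie above the band, and CLU and CSMD2 lie below it.

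Other parts of the complement system were examined in a list of 48 further complement genes, of which 47 were found in the tables. Of these, 23 had no read in any library, where a count of 0 allows up to 3 reads per library, and 17 had too few reads to be tested. The genes without a read included the C1q chains C1QA, C1QB and C1QC, the lectin MBL2, the terminal components C7, C8A, C8B and C9, and SERPING1, the inhibitor of C1r and C1s. Of the 7 tested genes 0 rose and 2 fell in edgeR's quasi-likelihood test, where 13% of all tested genes fell. At an unadjusted p under 0.05, 1 was higher and 4 were lower, against 22.6% and 22.4% of all tested genes. DESeq2 called 0 higher and 1 lower (CLU) at an adjusted p-value of 0.01, against 8.57% and 7.93% of the genes it tested. The median log2 fold change of the 7 genes was -0.27.

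Of the genes that fell, CLU encodes a soluble regulator and CSMD2 is listed with the membrane regulators. CLU encodes clusterin, a chaperone that also holds back the membrane attack complex. It had 27.2, 28.7 and 26.2 CPM in control and 21.9, 17.3 and 19.8 in ADP-CM, with no overlap, a log2 fold change of -0.48 and an adjusted p-value of 2.52e-08 (edgeR, quasi-likelihood). CSMD2, a membrane protein with complement-like domains, had 6.04, 7.58 and 9.01 CPM in control and 5.30, 5.40 and 4.57 in ADP-CM. Its log2 fold change was -0.57 and its adjusted p-value was 0.000285 (edgeR, quasi-likelihood), which became 0.0201 without control replicate 3 and 0.0105 with DESeq2.

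The other 5 tested genes did not pass the test. C1QBP, a binding protein of C1q that is chiefly mitochondrial, was the most abundant, with 427.8 ± 4.39 and 443.1 ± 4.49 CPM, a log2 fold change of 0.05. C5, which starts the terminal pathway, had 125, 125 and 133 reads in control and 104, 110 and 133 in ADP-CM. Its log2 fold change was -0.27 with a 95% interval of -0.50 to -0.04. C1RL had a log2 fold change of 0.10, and the integrin chains ITGB2 and ITGAM, which form complement receptor 3, had -0.30 and -0.20. C3AR1, the receptor of the C3a fragment, had no read, and C5AR1 had at most 6.

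Likeness of profile was described with Pearson's r of log2 CPM across the 6 libraries, where all points share the split between the groups and, for CFB, the 1 high library. The genes most like C3 were LOC645638, VHL and RPL4 (r = 0.999, 0.998 and 0.998), and 79 genes reached an r of 0.99. Those most like CFB were ARID1A, CYTH2 and ANKRD23 (r = 0.995, 0.993 and 0.99), whose own log2 fold changes were 0.04, 0.07 and 0.36.

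The libraries carried the markers of an epithelial line, and all 8 epithelial markers on the list, EPCAM, CDH1 and KRT8 among them, passed the filter. Their sum was 4144 to 4217 CPM under control medium and 3490 to 3539 under ADP-CM, with 2 raised and 5 lowered. Markers of the liver, the main source of factor B and C3, were at or near 0. ALB, APOA1, TTR and FGB together had 1, 0 and 4 reads in control and 1, 0 and 14 in ADP-CM, and all 14 in replicate 3 were reads of FGB, a fibrinogen chain. Of 6 leukocyte markers those other than CD68 summed to between 5 and 9 reads per library, and CD68 rose from 7.43 ± 0.669 to 10.7 ± 1.03 CPM. Stromal markers summed to 61.5 to 68.4 CPM in control and 78.3 to 79.1 in ADP-CM, nearly all of it COL1A1, and endothelial markers to 60.7 to 66.4 and 54.5 to 61.6 CPM, nearly all CDH5. The part of these in the complement differences was not tested. In RNA from whole cultures, a change in the number of cells that make a transcript and a change in its amount per cell cannot be told apart.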

How the data were processed

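Per the labels and the study's methods, the authors prepared stranded TruSeq mRNA libraries, sequenced 50 base single reads, aligned them to hg19 with TopHat2 and deposited raw read counts per RefSeq gene from HTSeq for each of the 6 libraries. Versions and the strand and overlap settings of HTSeq are not given in the sources used here, so genes that share exons are uncertain, and reads aligning to more than 1 place are not counted. Between 16262614 and 18363033 reads per library lay on genes. Summary lines that name no gene (reads on no gene 10.2% to 11.6%, ambiguous 0.709% to 0.721%, not unique 20.5% to 20.8%) were left out.

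Counts were analysed in R 4.3.3 with edgeR 4.0.16 (TMM, filterByExpr defaults, quasi-likelihood test, Benjamini-Hochberg adjustment over 12663 genes), with limits of 0.01 on the adjusted p-value and 1.5 on the fold change after the study's methods, which used DESeq. DESeq2 1.42.0 was an alternative. Both fits were tested on simulated data. The members and lists were chosen with earlier results of these data known. Some complement genes are not reported here and were left out of the list of other complement genes. The text names all 9 members, C2, C4A and C4B, of the other complement genes those past 0.01 and the 5 most abundant, the 5 genes with the highest ratio of ADP-CM replicate 3 to replicates 1 and 2 at a mean of at least 0.5 CPM, and the 3 genes most like CFB and C3 by Pearson's r of log2 CPM (prior count 2). ITGB2 and ITGAM, outside that rule, are named to complete the tested genes among the other complement genes. The rest outside it are named as listed at or near 0, as markers or as neighbours. All of these were named after their values were seen. Positions and canonical transcripts are from GENCODE release 44 on GRCh37, which has the coordinates of hg19, and promoter windows from RefSeq. All replicate pairs differed beyond sampling noise (chi-square per degree of freedom 1.22 to 2.01). The spread was still small, with a common coefficient of variation between libraries of 1.67% in edgeR beyond counting error, and may be technical.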

Additional observations from a re-analysis of the deposited data

How the results depend on the processing

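Of 182 refits of 14 named complement genes under alternative settings, 172 kept the direction and the side of the 0.01 limit, 7 lost the call and 3 changed sign. The sign changes were those of C1R without control replicate 1 (0.0428) and of CD46 without control replicate 3 (0.002) and without ADP-CM replicate 3 (0.0192), none of them called. With each library left out in turn, C1R ran from -0.3188 to 0.0428 and CD46 from -0.0246 to 0.0192. The lost calls were those of CFB, CD55 and CSMD2 given above. CFB, C1S and CFI could not be fitted with at least 10 counts in every library, since CFB has 9 reads in control replicate 3. At the limits of 0.01 and 1.5-fold, 144 genes were raised and 144 lowered. DESeq2 gave 83 and 93, and no limit on the fold change gave 1707 and 1650. Without that limit 3 members were raised and 1 lowered, and of the other complement genes 0 were raised and 2 lowered. At 0.01 and 1.5-fold the members raised were CFB and C3. They became 1 (C3) with DESeq2, with edgeR's robust fit and with at least 10 counts in every library. With each library left out in turn, 127 to 140 genes were raised and 124 to 154 lowered. The members raised then numbered 1 to 2, the lower value without ADP-CM replicate 3. The other complement genes lowered numbered 0 to 1, the higher value (CSMD2) without control replicate 1, ADP-CM replicate 1 or ADP-CM replicate 2. At the adjusted p-value alone, the members lowered numbered 0 to 1, with CD55 lost without control replicate 2 or ADP-CM replicate 1, the members raised 2 to 3 and the other complement genes lowered 1 to 2, with CSMD2 lost without control replicate 3. DESeq2 lowered 1 of these, CLU. Plain library sizes or DESeq2's size factors changed no call of a member. With the replicate number as a block, 151 genes were raised and 146 lowered, and CFB had a log2 fold change of 2.51. The labels do not say that a number marks a shared batch, so the numbers were not taken to pair the libraries. The residuals of same-numbered libraries correlated by 0.0726, 0.0141 and 0.0973, and those of differently numbered libraries by -0.0928 to 0.0261. The pairs numbered 1 and 3 thus correlated more than any differently numbered pair. ADP-CM replicate 2 correlated better with control replicate 1 (0.0261) than with its own number. Whether same-numbered libraries share an effect was not tested.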
